A study of Drosophila melanogaster with 16 samples.

Results

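Jra encodes dJun, the fly Jun protein, and it was measured by 8 probes of 1 transcript, FBtr0088410 (Jra-RB), among 132999 gene probes of 16637 transcripts. Hearts, which in the fly are contractile tubes, were dissected from w1118 Canton S isogenic males aged 40 days and 10 days. Each age had 4 biological replicates, and a sample held 10 tubes. Both ages shared this genotype, and the methods name no transgene or drug for them. Each of the 8 samples was labelled in both dyes, and each of 8 NimbleGen arrays paired a 40-day with a 10-day sample, 1 per dye, which gives 16 channels. Jra was selected on its measured values, because 1 of its probes, P00811, is on the part used here of the study's list of probes induced with age. Its ratios of 40 to 10 days are therefore a description and carry no test.

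dJun is a transcription factor with a basic region and a leucine zipper. It pairs with the Fos protein Kayak to form AP-1, which binds short DNA motifs near its target genes. Jun N-terminal kinase, encoded in the fly by basket (bsk) and activated by the kinase Hemipterous (hep), phosphorylates dJun. This pathway responds to stress and wounding and also drives the closure of epithelia in the embryo. In RefSeq the gene lies on chromosome arm 2R. The build behind the probe design is not given in the sources used here, so no coordinates are printed.

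The probes are 60 bases long, and their names give the base of the design sequence at which each starts, 9, 66, 146, 230, 362, 567, 646 and 811. They cover bases 9 to 870, and P00009 and P00066 share 3 bases. The deposited data are scanner intensities, not normalized, and a value table of normalized linear intensity. Both name the same ages and dyes, but 8 of the 16 columns of the value table tracked the scanner channel of a different sample, of equal age and dye, more closely than their own. A mean over all 8 arrays does not depend on this, whereas values given by replicate letter, A to D, and their spread do. The 4 ratios by letter may therefore share 40-day extracts.

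Jra gave signal above background in most channels at 4 of its 8 probes. Background was set in each channel at the 95th percentile of 4100 random control probes. P00811 was above it in all 8 channels of 40 days and all 8 of 10 days, with at least 98.6% of the control probes below it in every channel. P00146 was also above it in all 16 channels, with at least 96.3% below it. Over the array 12.7% of gene probes were above the control level in all 16 channels, against 2 of the 8 Jra probes. P00567 was above it in 7 of 8 channels at 40 days and 7 of 8 at 10 days. P00646 was above it in 7 of 8 channels at 40 days and 4 of 8 at 10 days.

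The remaining 4 probes lay within the range of the control probes. P00009 and P00066 were above the control level in none of the 16 channels, P00230 was above it in 1 channel of 40 days, and P00362 in 2 channels of 40 days. The median share of control probes below them was 62.5% for P00009, 66.2% for P00066, 78.0% for P00230 and 68.4% for P00362. Their log2 ratios are given below without a fold change, because both ages lay at background. In the plot of control percentiles the ranges of the brighter and the dim probes overlapped at both ages. P00646 had as few as 70.4% of the control probes below it at 10 days. At 40 days it had as few as 92.2%, and the dim probe P00230 had up to 95.8%.

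**Figure D1:**
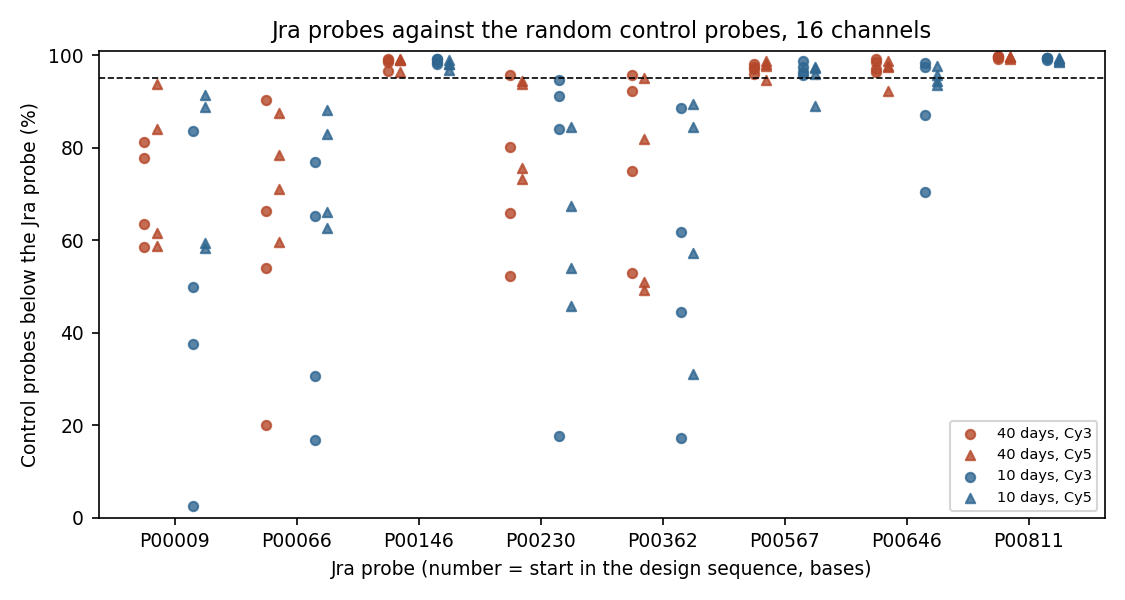
Share of the random control probes (%) that were dimmer than each Jra probe, with 1 point for each of the 8 channels of 40 days (left of each pair) and of 10 days (right), circles for Cy3 and triangles for Cy5. The dashed line is the 95th percentile, and P00811 and P00146 lie above it in all 16 channels.

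P00811 was higher at 40 days in all samples of the value table. The geometric mean of its Cy3 and Cy5 columns was 624, 652, 896 and 657 in the 40-day samples A to D, against 383, 455, 418 and 370 in the 10-day samples. The groups did not overlap, and in this table the 40-day sample C stood above the other 3 of its age. In the normalized scanner log2 levels, C was the highest 40-day sample in Cy5, 9.57, and the lowest in Cy3, 9.34, where B was the highest, 9.85. The sources disagree on some letters, so C may name different extracts in them. On the log2 scale of the value table the probe averaged 9.45 ± 0.24 at 40 days and 8.66 ± 0.13 at 10 days (SD, n = 4 each), a difference of 0.79. Without the 40-day sample C the difference was 0.67. In the Cy3 columns alone the 40-day values ran from 711 to 1092 and the 10-day values from 323 to 460, with no overlap. In the Cy5 columns the 40-day values ran from 515 to 735 and the 10-day values from 354 to 542, so these overlapped.

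P00646 had 179, 191, 319 and 166.1 in the 40-day samples A to D, against 164, 148, 165.8 and 119 in the 10-day samples. In these sample means the lowest 40-day sample, D, lay just above the highest 10-day sample, C, so the groups met without overlapping. Which columns form a sample depends on the letters, on which the sources disagree. In the Cy3 columns alone the 40-day values ran from 212 to 372 and the 10-day values from 85 to 169. In the Cy5 columns they overlapped, at 122 to 273 for 40 days and 158 to 208 for 10 days. The log2 difference of P00646, 0.48, was 0.27 without the 40-day sample C, which again was the highest in the value table. In the normalized scanner log2 levels, C was again the highest 40-day sample in Cy5, 8.13, and the lowest in Cy3, 7.61, where B was the highest, 8.39. By the scanner labels the ages overlapped in each dye. In Cy3 the 10-day sample A had 7.86, above the 40-day sample C. In Cy5 the 40-day sample D had 7.21, below the 10-day sample A at 7.54. In the sample means of the value table, 2.53% of all gene probes had non-overlapping groups with 40 days on top. Among the 8 probes of Jra, P00811 and P00646 did.

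P00567 had 191, 174, 236 and 171 in the 40-day samples, against 151, 225, 174 and 138 in the 10-day samples, and the ages overlapped. P00146, also above background in every channel, had 279, 318, 353 and 194 in the 40-day samples, against 216, 284, 322 and 258 in the 10-day samples. Its lowest and its highest values were both from 40 days, and the means differed by 0.06 on the log2 scale. The dim probes P00009, P00066, P00230 and P00362 had values between 62.6 and 141 at 40 days and between 57.3 and 98.3 at 10 days, and their groups overlapped.

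**Figure D2:**
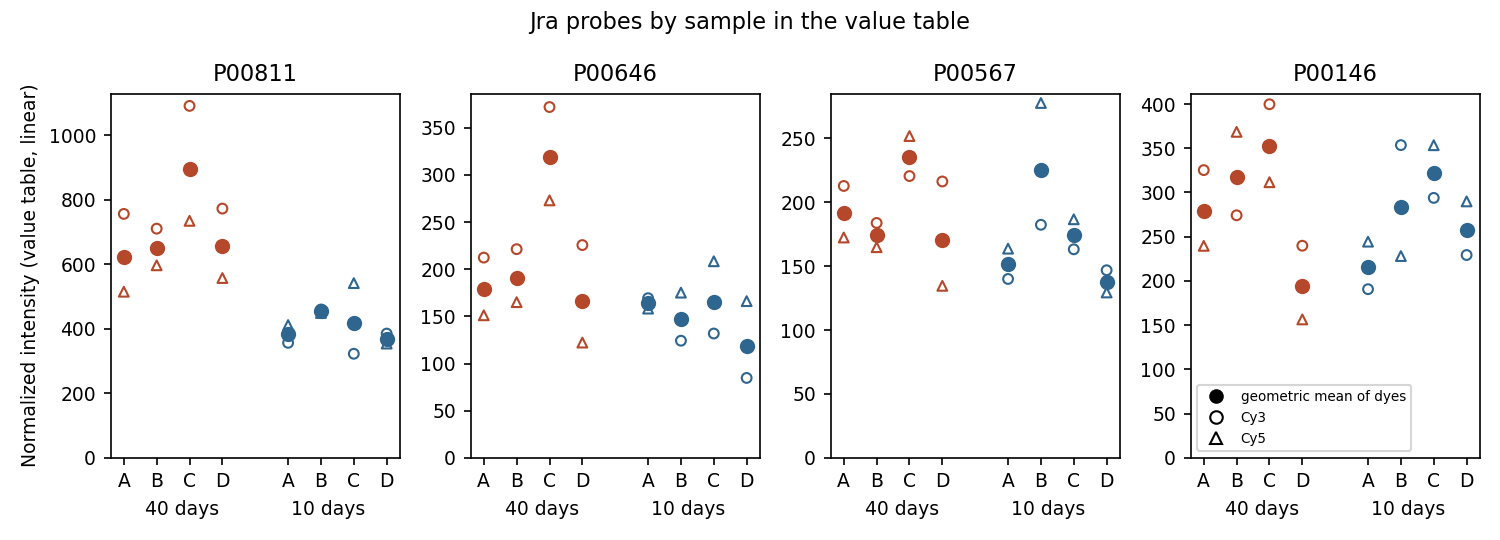
Normalized linear intensity of the 4 Jra probes above background in the 40-day samples (left) and the 10-day samples (right) A to D. Filled points are the geometric mean of both dyes, open circles Cy3 and open triangles Cy5; P00811 shows no overlap of the means, with 624 to 896 at 40 days and 370 to 455 at 10 days.

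The scanner intensities, corrected with normexp and normalized by loess within each array, gave a log2 ratio of 40 to 10 days for each probe on each array. P00811 was above 0 on all 8 arrays. With 40 days in Cy5 its ratios on the arrays of letters A to D were 0.50, 0.83, 0.67 and 0.51, and with 40 days in Cy3 they were 0.76, 1.01, 0.77 and 1.07. All values were of one sign and those with 40 days in Cy3 were the higher on average, at 0.90 against 0.63. Averaged over both dyes the ratio was 0.77 ± 0.12 (SD, n = 4 letters), or 1.70-fold. Over all gene probes 2.85% were above 0 on all 8 arrays, and P00811 was the 1 probe of Jra that was.

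P00646 had ratios of 0.15, 0.54, 0.69 and 0.40 in letters A to D and a mean of 0.45 ± 0.23, with 7 of 8 arrays above 0. No fold change is given for it, since it was at background in 4 of the 8 channels of 10 days. P00567 averaged 0.16 ± 0.10 with 6 of 8 arrays above 0. P00146 averaged 0.06 ± 0.20, with 0.23 and 0.24 in letters A and B and -0.05 and -0.16 in letters C and D, so its letters differed in sign. Among the 4 dim probes the mean log2 ratios ran from 0.06 to 0.26, and P00009 had a ratio of 0.83 in letter C and between -0.09 and 0.03 in the other letters. In all, 5 of the 8 probes, P00230, P00362, P00567, P00646 and P00811, were above 0 in all 4 letters, against 11.4% of all gene probes. This count describes the contrast on which Jra was chosen.

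**Figure D3:**
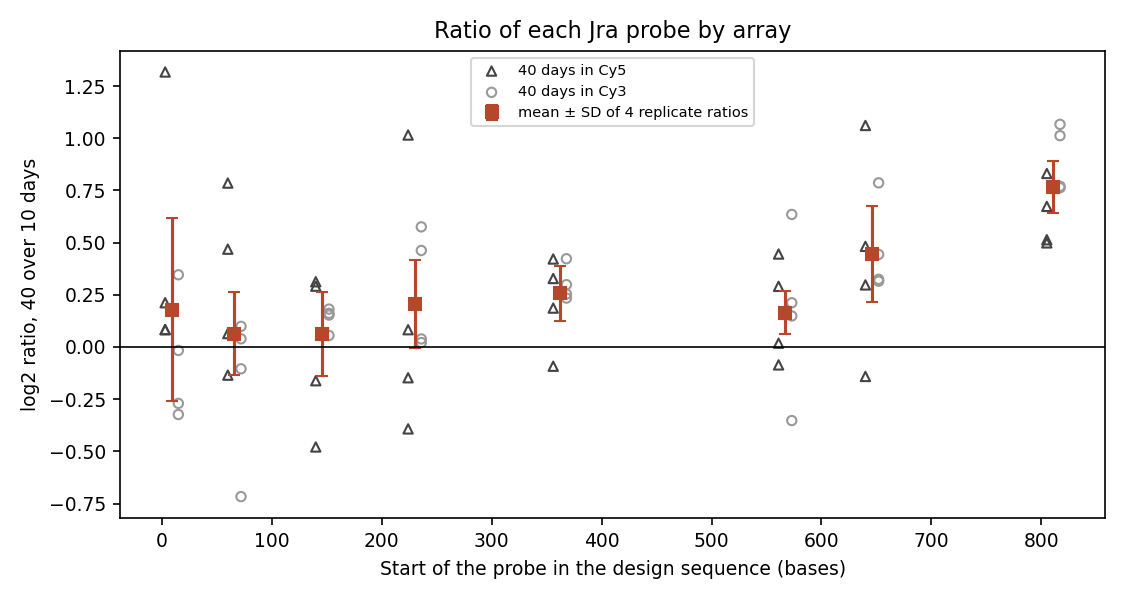
Log2 ratio of 40 over 10 days of each Jra probe against its start in the design sequence (bases). Open symbols are the 8 arrays, with triangles where the 40-day sample was in Cy5 and circles where it was in Cy3, and squares with bars are the mean ± SD of 4 letter ratios; P00811 had the highest mean, 0.77, and no array below 0.

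The change was carried mainly by the last pair of probes in the design sequence. P00811 made up 35.7% of the sum of the 8 mean ratios and P00646 a further 20.8%, while the first 5 probes and P00567 averaged 0.16. The 4 dim probes, whose ratios were measured at background, made up 32.9% of this sum. The probes above background in all 16 channels, P00811 and P00146, differed from each other by 0.70 ± 0.23 in log2 ratio (SD, n = 4 letters), and P00811 had the higher ratio in each letter, by 0.40, 0.69, 0.77 and 0.95 in A to D. On the array 1038 transcripts had exactly 2 such probes. The median difference between their ratios was 0.12, and 97.5% of them differed by less than the Jra pair. The ratios of all 8 Jra probes had an SD of 0.23, against a median of 0.15 over the 16617 transcripts with 8 probes, of which 78.6% had a lower one.

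Ratios and brightness also varied with probe order over the whole array. In 21.2% of the transcripts with 8 probes the last probe had the largest ratio, as in Jra, against 9.18% to 15.7% for each of the others. The last probe was above the control level in all 16 channels for 27.0% of these transcripts, and the first for 4.34%. The median ratio of the last probe was 0.01 and that of the first 0.00 on the log2 scale. Probes above the control level in all 16 channels had a median absolute log2 ratio of 0.36, against 0.08 for those above it in none. The RNA had been amplified before labelling. The part of probe order and brightness in the pattern of Jra was not tested, and P00146, the bright probe nearer the start, had a ratio of 0.06.

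As a transcript, the mean of its 8 probes, Jra had log2 ratios of 0.15, 0.28, 0.41 and 0.23 in letters A to D. All were above 0, as were all 8 arrays, which ran from 0.09 to 0.67. The mean was 0.27 ± 0.11 (SD, n = 4), dim probes included, against a median of 0.01 over all transcripts, and 91.7% of transcripts had a lower ratio. In the value table the transcript averaged 7.36 ± 0.30 at 40 days and 7.06 ± 0.13 at 10 days on the log2 scale (SD, n = 4 each). The 40-day samples A to D had 7.26, 7.26, 7.79 and 7.11, against 7.08, 7.05, 7.23 and 6.90 in the 10-day samples. Samples of both ages overlapped, since the 40-day sample D lay below the 10-day sample C. The difference of 0.29 in this table was 0.15 without the 40-day sample C.

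Leaving out P00811 lowered the transcript ratio to 0.20, and leaving out any other single probe gave 0.24 to 0.30. Averaging only the probes above the control level in all 16 channels gave 0.42, and the median of the 8 probes gave 0.24. The plot of the transcript ratio by processing choice shows all of them above 0. Tissue was measured in bulk, so more cells of a type and more RNA per cell cannot be told apart.

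**Figure D4:**
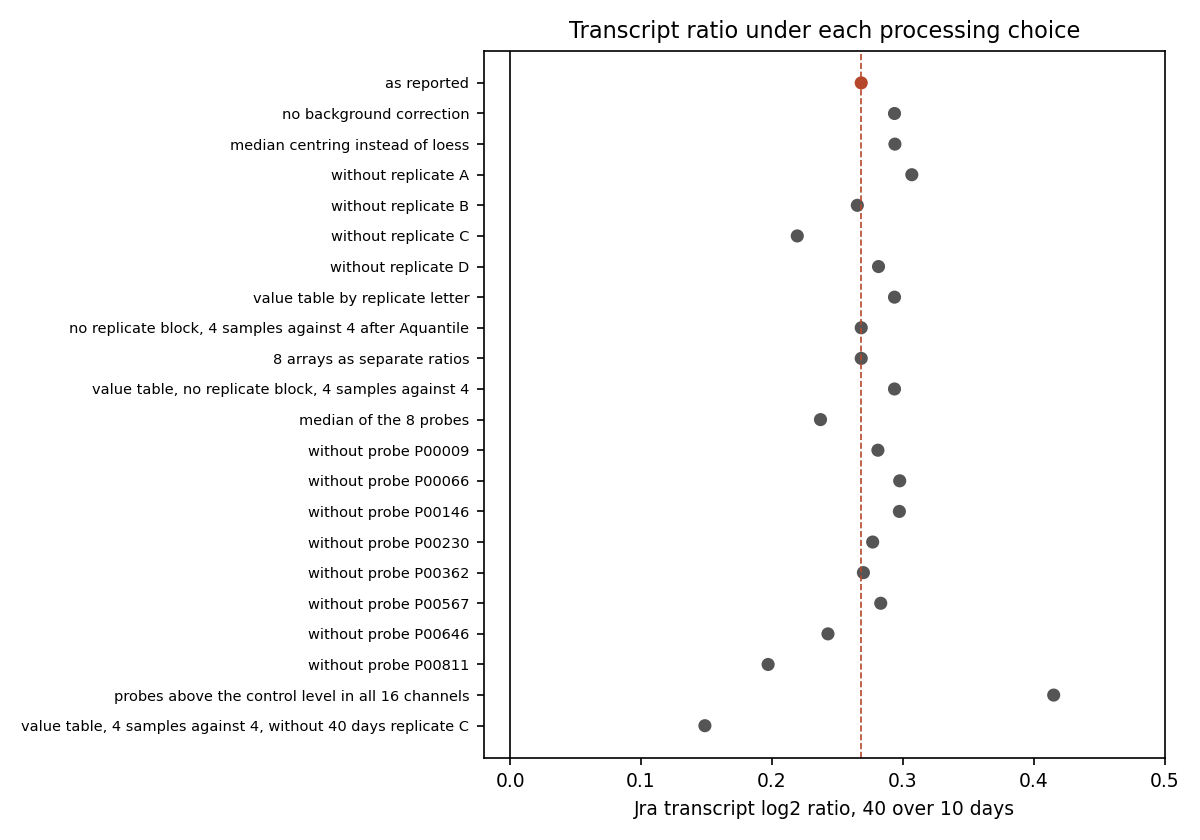
Jra transcript log2 ratio of 40 over 10 days (x axis) as reported, 0.27 (coloured point and dashed line), and under each other processing choice (grey points, 1 per row). The values run from 0.15, in the value table without the 40-day sample C, to 0.42, with the probes above background in all 16 channels.

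The fit over all features, made with limma on the 4 letter ratios with Benjamini-Hochberg adjustment, gives the background to the Jra probes. At an adjusted p of 0.01, 0.332% of gene probes were called higher at 40 days, and 0 of the 8 Jra probes were. At 0.05 the share was 1.14%, and 1 of the 8, P00811, was called. Of the transcripts 0.144% were called higher at 0.01 and 1.33% at 0.05, and the Jra transcript was called at neither. The fit takes the 4 letter ratios as independent, although they may share 40-day extracts. Since Jra was chosen on this contrast, nothing further is read from these calls.

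The dyes are a measure on which Jra was not chosen, because age cancels in the mean Cy5 over Cy3 ratio of the paired dye-swapped arrays. Loess within arrays had already centred this ratio over the probes of each array, so the fit covers only what remained at single probes. Since the sources disagree on some letters, the paired arrays of a letter may hold different extracts of the older age. A difference between such extracts would remain in the dye ratio of that letter, and letters could share extracts. The fit takes the letters as independent, so its SE, p-values and counts carry the same limit as the age fit. By limma, 0 of the 8 Jra probes and 0 of all gene probes (0%) had a dye difference at an adjusted p of 0.01. At an unadjusted p of 0.05 these counts were 0 of the 8 Jra probes and 4324 of all gene probes (3.25%), a share too small to set the Jra probes apart. P00811 had a Cy5 over Cy3 log2 ratio of -0.14 ± 0.11 (SE, n = 4 letters; limma adjusted p = 0.9999), below 0 in all 4 letters. The estimates for the other probes ran from -0.07 for P00146 to 0.25 for P00009, whose SE was 0.12. A dye difference of the size of the age ratio of P00811 was not seen at any Jra probe, though these tests do not show that the dyes gave equal values.

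The 8 probes varied together to a moderate degree over the 16 channels. After the mean of each dye was taken off, the correlation of the log2 levels of 2 probes was above 0 for all 28 pairs, with a median of 0.42. It was 0.71 for P00646 and P00811 and also for P00362 and P00646, the highest of the 28, and the lowest was 0.15. Pairs of dim probes ran from 0.15 for P00230 and P00362 to 0.63 for P00009 and P00066. P00146 and P00811, above background in every channel, had 0.28. With the mean of each age taken off as well, the median was 0.37. The pair P00646 and P00811 then had 0.61, and the highest was 0.79 for P00362 and P00811. The channels share samples and arrays, and probes of other transcripts were not compared. These values are therefore a description, and agreement of the probes on Jra was not tested.

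The named genes whose level followed that of Jra most closely over the 16 channels were CG32032 (Pearson r = 0.97), CG1943 (0.97), Nepl21 (0.96), hoka (0.96) and Act5C (0.95). Act5C encodes a cytoplasmic actin, and hoka a protein of the smooth septate junction. With the mean of each age taken off, the values were 0.96, 0.96, 0.96, 0.95 and 0.94, so the likeness was about the same among channels of one age. In the value table, whose columns differ for some samples, they were 0.94, 0.88, 0.94, 0.83 and 0.87. Over the 16636 other transcripts the median was -0.05, and 59 had a correlation over 0.9. Only the 700 other transcripts on the study's list of induced probes could be named, and their median was 0.51. The channels come from 8 samples and each sample appears in both dyes.

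Of 26 other genes of JNK signalling and AP-1, 2 could be named. A gene could be named only where the study lists a probe of it as induced at 40 days, so the direction of the named genes was fixed by that list and their p-values are not independent evidence of it. Mmp1 is a matrix metalloproteinase gene induced by JNK in fly tissues. Its value table level was 514, 398, 686 and 459 in the 40-day samples A to D, against 186, 212, 193 and 165 in the 10-day samples. The groups did not overlap. Its log2 ratio was 1.35 ± 0.06 (SE, n = 4; limma adjusted p = 0.0084), and 7 of its 8 probes were above 0 in all 4 letters. Over all gene probes 11.4% were, and the 700 named transcripts had a median of 5 such probes. The adjusted p for Mmp1 ran from 6.97e-05 to 0.084 over the alternatives, and without any 1 of the 4 letters it was above 0.01. Its SE and p take the 4 letter ratios as independent, although these may share 40-day extracts.

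Rac2, a small GTPase of the Rac family that can act upstream of JNK, had 721, 709, 1568 and 533 in the 40-day samples A to D, against 574, 373, 441 and 374 in the 10-day samples. These are value table levels, whose letters differ from the scanner data for some samples. The ages overlapped, and the 40-day sample C was the highest, as for Jra in that table. Its log2 ratio was 0.87 ± 0.22 (SE, n = 4; limma adjusted p = 0.17). Of 15 other genes of the basic leucine zipper family, 1 could be named. Irbp18, a C/EBP-related protein, had 318, 369, 348 and 541 in the 40-day samples, against 271, 292, 252 and 232 in the 10-day samples, with no overlap. Its log2 ratio was 0.53 ± 0.10 (SE, n = 4; limma adjusted p = 0.10). Values for kay, bsk, hep and puc, the Fos partner, the kinases and the JNK phosphatase, are not analysed here.

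The study lists 28 genes beside Jra as dependent on hep or bsk in cultured cells and induced here, and 28 were matched to a transcript. All 28 had a ratio above 0, with a median of 0.62, and 26 of them had a larger ratio than the 0.27 of Jra. By limma 2 were called higher at an adjusted p of 0.01 and 8 at 0.05. Of 97 predicted AP-1 targets beside Jra, 89 were matched, all above 0 with a median of 0.50, and 73 had a larger ratio than Jra. By the same fit 4 of them were called at 0.01 and 27 at 0.05. Among the 700 named transcripts, all from the list of induced probes, 3.43% were called at 0.01 and 29.3% at 0.05, so the shares of both lists at 0.05 were near that of all named transcripts. Both lists were drawn by the study from genes induced in these samples, so their direction is no independent evidence. Beside Jra they share 12 genes, which include Mmp1 and Rac2. The named transcripts, drawn from the same source, had a median of 0.59, and 13.4% of them had a lower ratio than Jra.

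**Figure D5:**
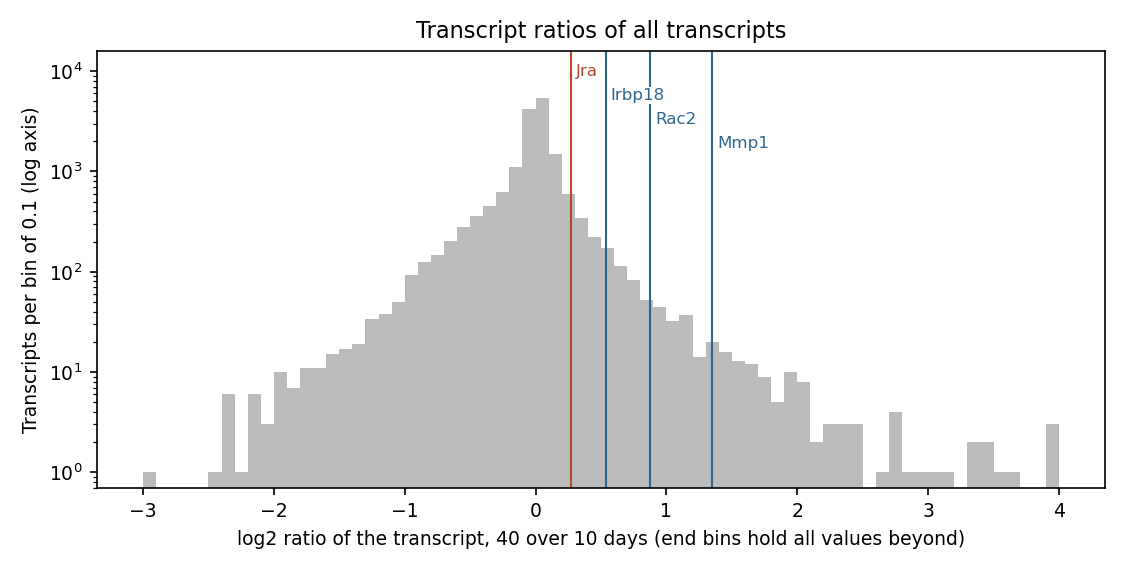
Number of transcripts (log axis) in bins of 0.1 of the log2 ratio of 40 over 10 days, over 16637 transcripts. Lines mark Jra at 0.27, Irbp18 at 0.53, Rac2 at 0.87 and Mmp1 at 1.35.

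None of the 9 cardiac, 10 muscle, 5 nephrocyte, 8 testis and 4 neuron markers could be named on this array, so the labelled tissue was not checked against its defining genes. Of 6 haemocyte markers 2 were named, both receptors for phagocytosis. These too could be named only through the list of induced probes, so their direction was fixed and no test is given. nimC4 had a log2 ratio of 2.06 and crq one of 0.63. Their summed level in the value table ran from 594 to 815 at 40 days and from 261 to 411 at 10 days. Of 6 fat body markers 1 was named, apolpp, with a log2 ratio of 1.22. Its ratios in letters A to D were 1.77, 1.82, -0.04 and 1.33, and 2 of its 8 probes were above 0 in all 4 letters. Its level ran from 307 to 754 at 40 days and from 125 to 386 at 10 days. The part of haemocytes and fat body in the Jra ratio was not tested.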

How the data were processed

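Hearts of males aged 40 and 10 days were compared on NimbleGen 2-colour arrays. RNA was amplified before labelling, per the study's methods. The authors deposited the scanner intensity of every probe and channel, which NimbleScan 2.5.26 wrote and which is not normalized per the file headers, and a value table of normalized intensity on a linear scale. Per the study's methods the normalization was lowess. How the columns were centred between arrays is not given in the sources used here. Samples were grouped by the labels.

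Scanner intensities were background corrected with normexp (offset 50) and normalized by loess within arrays, with control probes at weight 0, in R 4.3.3 with limma 3.58.1 and statmod 1.5.0. Each log2 ratio was put as 40 over 10 days, both arrays of a letter were averaged, and the 4 ratios were fitted with lmFit and eBayes over all gene probes or transcripts, with Benjamini-Hochberg adjustment at 0.01. The fits were tested on simulated data. The number of arrays limits the precision, and no depth applies.

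Transcripts were named from the study's list of changed probes, which names induced genes only here (701 transcripts). The text names Jra and its probes, up to 8 members of each pathway list, and the 5 named genes most like Jra. nimC4, crq and apolpp are the marker genes that could be named. The members and lists were chosen with earlier results of these data known. Alternatives were other background correction and centring, the value table, 8 separate arrays, samples without the replicate block, other thresholds, and leaving out letters or probes.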

Additional observations from a re-analysis of the deposited data

Results flagged for a closer look

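In 35 groups of 4 values examined for Jra, 3 had a value far from the others, and chance alone is set to flag about 1 group in 20. The ratio of P00009, which was not above background in any channel, was 0.83 in letter C and -0.09 to 0.03 in the other letters, so its mean of 0.18 rests on letter C. P00811 in the value table had a log2 level of 9.81 in the 40-day sample C, against 9.29 to 9.36 in the other 40-day samples. In the normalized scanner levels C was the highest of these samples in Cy5 only. P00362, a probe near background, had a value table log2 level of 5.92 in the 10-day sample D, against 6.31 to 6.39 in the other 10-day samples.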

How the results depend on the processing

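The Jra transcript ratio was above 0 under every alternative run, and P00811 had the largest ratio of the 8 probes under each one that compared them. The transcript ratio of 0.27 ran from 0.22 to 0.31 when 1 letter was left out. It was 0.42 with only the probes above background in all 16 channels, and 0.15 in the value table without the 40-day sample C, an alternative chosen after seeing the data. With median centring P00811 had a ratio of 0.90. Of the 8 probes, 5 were above 0 in all letters, 3 in the value table by letter and also as 4 samples against 4, a form added after seeing the data, and 1 on all 8 arrays taken singly. With background set at the 99th percentile of controls, 0 Jra probes were above it in all 16 channels.

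Counts of calls over the array varied more. At an adjusted p of 0.01 by limma, 503 probes and 31 transcripts were called. Leaving out 1 letter gave 0 to 670 probes and 0 transcripts (0 probes without B and without D, 76 without A), with 12164 to 18939 probes and 1610 to 2937 transcripts at an unadjusted p under 0.05. The value table by letter gave 70 probes and 4 transcripts. The 8 arrays taken as separate ratios gave 2855 and 519. Without the replicate block, 4 samples against 4 gave 692 probes and 148 transcripts, and 350 and 56 in the value table. The block is the shared array pair; deviations of same-letter samples of both ages correlated at -0.04, 0.29, -0.13 and 0.38 in the scanner data and at -0.19, -0.03, 0.47 and 0.25 in the value table. Since the sources disagree on some letters, whether these mark a further pairing was not settled. At 0.05 there were 1836 probes and 255 transcripts. P00811 was called with 8 separate arrays and at 0.05, and no Jra probe under the other alternatives. Most probes lay near background, which limits what Jra's 4 dim probes can show.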
